A study of Homo sapiens with 12 samples.

Results

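The genes described here are 44 of the 38516 genes in the deposited expression table: NDRG1, subunits and regulators of the hypoxia-inducible factors, genes these factors are known to induce, and the enzymes of glycolysis. They were taken from the table by symbol, and all 44 were found. The set was chosen on measured values, since NDRG1 was picked as one of the strongest rises in silenced KYSE150 cells and the other genes were listed around it. Values of these genes in the KYSE150 comparison, counts past a threshold included, are therefore a description and not a test of the set. The comparison in KYSE510 cells is between other libraries and was tested. Its spread was estimated over all 12 libraries, those of KYSE150 included, and earlier results of these data were known when the members were chosen. The test is therefore not fully independent of the choice. KYSE150 and KYSE510 are established human cell lines, both from squamous carcinoma of the esophagus. Each line was sequenced as a control and with HCP5 silenced (labelled HCP5 silence), with 3 libraries in each of the 4 groups and 12 in all. All cells were grown in RPMI-1640 with 10% fetal bovine serum. Library titles start with shc for controls and with sh4 for silenced libraries in both lines, and the labels do not explain these prefixes. Otherwise the labels give no oxygen level, no reagent or its sequence, no time of silencing and no clone. They do not say whether the 3 libraries of a group came from separate cultures. P-values then measure the spread between these libraries, which may be technical.

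Hypoxia-inducible factors are transcription factors made of an oxygen-regulated alpha subunit (HIF1A or EPAS1) and the constant partner ARNT. In oxygen, prolyl hydroxylases of the EGLN family mark the alpha subunit, VHL binds the marked protein and it is degraded. Without oxygen the alpha subunit is stable, and the factor binds short sites in genes for glucose uptake, glycolysis, acid export, angiogenesis and mitochondrial turnover. NDRG1 is a cytoplasmic protein of the N-myc downstream-regulated family, known for induction by hypoxia and by loss of iron, for repression by MYC family proteins, and for a rise as epithelial cells differentiate. Because the alpha subunits are regulated mainly as proteins, their RNA level does not report the activity of the factor.

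Values are RPKM (reads per length of exon and per assigned reads of the library), and libraries held 20035025 to 28202422 assigned reads. Every silenced library of KYSE150 was deeper than every control of that line. HCP5 itself was measured with 26 to 147 reads per library. Its level was 0.779, 0.745 and 0.786 RPKM in KYSE150 controls and 0.315, 0.418 and 0.579 after silencing, and 0.914, 1.85 and 1.40 against 0.505, 0.951 and 0.948 in KYSE510. It was lower in 6 of 6 same-numbered pairs, by 0.45 and 0.53 on the log2 scale, but did not pass the test in either line (adjusted p = 0.267 and 0.646). All 9 markers listed for squamous epithelium reached 0.5 RPKM in some or all libraries. They were KRT5, KRT14, KRT6A, KRT17, TP63, DSG3, SFN and, from epithelia in general, CDH1 and EPCAM. Of 14 markers of blood, endothelial, fibroblast and other cells, 11 stayed below 0.5 RPKM in every library. Summed over the 9 squamous markers, libraries reached 1105 to 1772 RPKM in KYSE150 controls and 1373 to 2969 after silencing, and 1543 to 2086 against 1912 to 3138 in KYSE510. The 14 other markers summed to 34.7 to 41.2 and 31.9 to 39.9 RPKM in KYSE150 controls and silenced libraries, and to 36.9 to 47.2 and 30.9 to 48.9 RPKM in KYSE510. None of the 14 was at 0 in every library. All 9 squamous markers were higher in KYSE150 (8 of 9 after median centring) and 7 of 9 in KYSE510, with medians of 0.482 and 0.275 on the log2 scale. Of all genes tested, 66.1% were higher in KYSE150 and 43% in KYSE510. None of the 9 passed in limma without the replicate block. At an unadjusted p under 0.05 there were 3 in each line, beside 18.1% and 6.35% of all genes. With the block 6 passed on the higher side in KYSE150, beside 5.04% of all genes, and 1 in KYSE510, beside 0.0842%. Their part in the results on the hypoxia and glycolysis genes was not tested. In bulk RNA, fewer cells of a type and less RNA per cell cannot be told apart.

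NDRG1 was higher after HCP5 silencing in both lines, by more than 2-fold in every same-numbered pair. The gene lies on chromosome 8 from 133237171 to 133302022 on the minus strand (GRCh38), and each value rests on at least 508 reads. KYSE150 controls had 3.19, 2.52 and 4.47 RPKM and silenced libraries 8.07, 7.04 and 10.2. In KYSE510 the controls had 2.70, 3.87 and 3.36 RPKM and the silenced libraries 7.41, 8.44 and 7.17. The groups of a line did not overlap, and the 6 silenced libraries of both lines lay above the 6 controls of both lines. In KYSE150 the mean was 3.39 ± 0.989 RPKM in controls and 8.45 ± 1.62 after silencing (SD, n = 3), a ratio of 2.49, with ratios of 2.53, 2.80 and 2.29 in pairs 1 to 3. This is the difference for which the gene was picked. In KYSE510 the mean was 3.31 ± 0.587 against 7.67 ± 0.676 RPKM (SD, n = 3), a ratio of 2.32, with pair ratios of 2.75, 2.18 and 2.13. On the log2(RPKM + 0.5) scale, where the constant makes changes of low genes smaller, the KYSE510 difference was 1.11 (SE 0.19). It did not pass the threshold of 0.05 in limma (adjusted p = 0.0776 over the 17823 genes tested). It passed when same-numbered control and silenced libraries were treated as pairs in the same model (adjusted p = 0.0152 with the replicate block). It also passed in limma with each library centred on its median (0.0305), with quantile normalization (0.0329) and with voom, limma's model for counts, on recovered reads (0.0457), while leaving out any 1 library gave adjusted p-values of 0.0618 to 0.262. An exact permutation test of the 6 KYSE510 libraries gave p = 0.1, two-sided, the smallest that 20 arrangements allow. Between the controls of the lines the NDRG1 level overlapped, with a log2 difference of -0.011 (SE 0.19). The sign of that small difference changed to 0.02 once each library was centred on its median or quantile normalized.

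**Figure D1:**
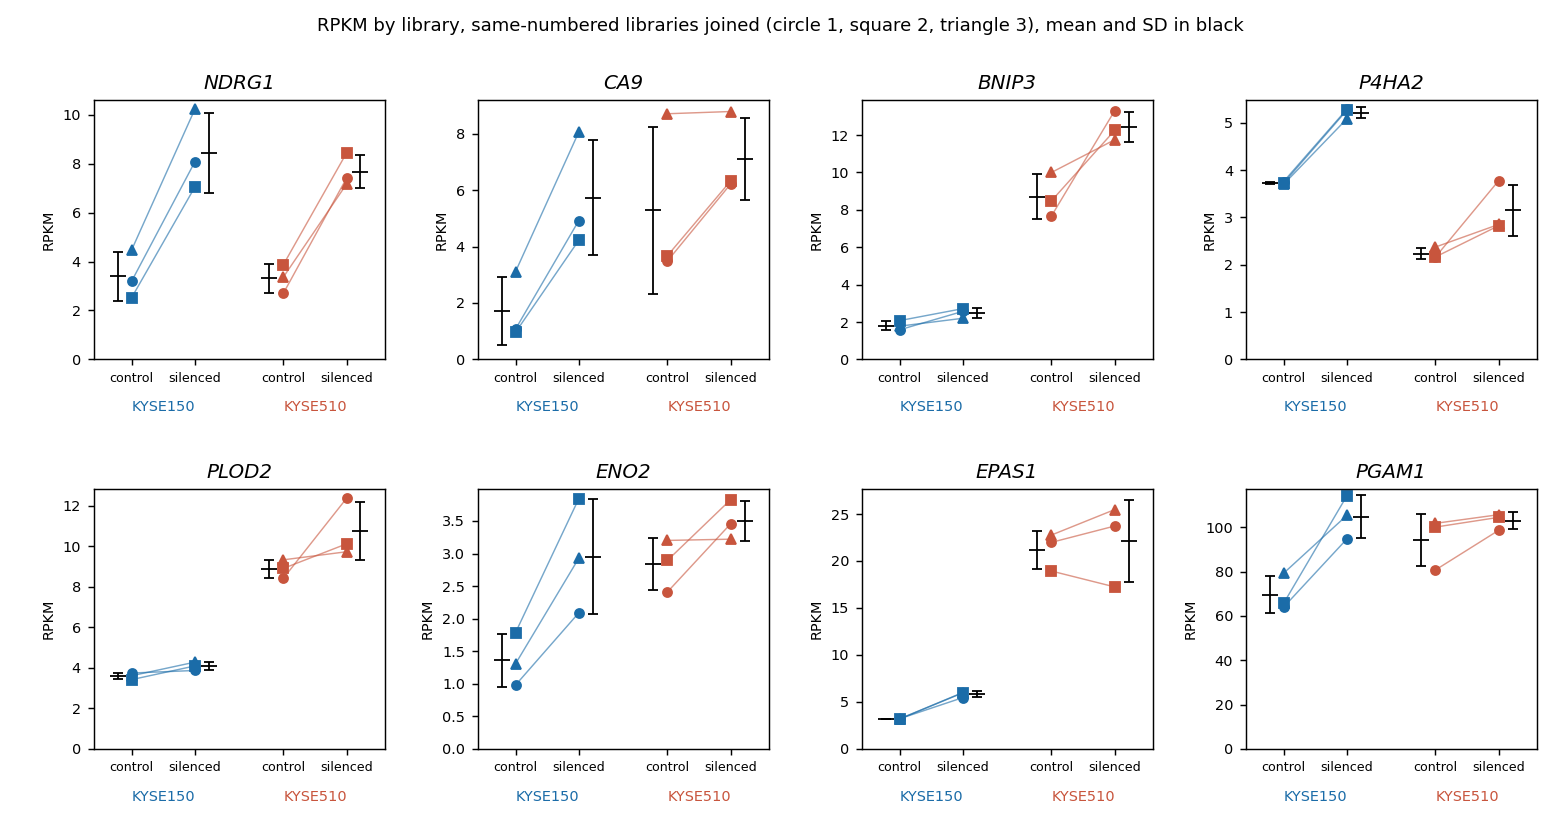
RPKM of 8 genes in each of the 12 libraries, in panels by gene, with KYSE150 in blue, KYSE510 in red, lines joining same-numbered control and silenced libraries, and black bars giving the mean and SD of each group (n = 3). NDRG1, BNIP3, P4HA2, PLOD2 and ENO2 have every silenced library above every control in both lines, while CA9 replicate 3 is the highest in each group and EPAS1 separates in KYSE150 alone.

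Of the 44 genes, 43 had at least 0.5 RPKM in at least 3 libraries and were tested. ANGPTL4 did not reach that level. In KYSE150, 41 of the 43 fitted differences were higher and 2 lower, beside 66.1% of all genes tested that were higher, and the median was 0.196 on the log2 scale beside 0.0825 for all genes. This count depends on the scaling: 26 were higher and 17 lower after each library was centred on its median, which moved the median difference of the set to 0.0659 and that of NDRG1 to 1.09. After quantile normalization 32 were higher and 11 lower. These counts include genes nearly absent in KYSE150, whose sign carries no information. As deposited, EGLN3 (1 read in controls, 2 after silencing), CA12 (0 and 1) and LOX (12 and 16) were among the higher. ALDOC (39 and 46 reads) was among the lower. NDRG1 and EPAS1 were past the threshold on the higher side, beside 0.376% of all genes, and 0 on the lower side, beside 0.123%. With the replicate block 9 were past it on the higher side, beside 5.04% of all genes. In 15 genes every silenced KYSE150 library lay above every control, beside 13.7% of all genes, and in 0 every one lay below, beside 5.47%. These KYSE150 counts come from the comparison that chose the set and are given as a description. NDRG1 was picked for its rise there, so its place among the genes past the threshold is not a result.

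In KYSE510, where the set could be tested, no member passed the threshold in either direction in limma, beside 0.0224% of all genes on the higher side and 0.0168% on the lower. The replicate block called 1 member, NDRG1, beside 0.0842% of all genes on the higher side, and voom called 1 on the recovered reads. At an unadjusted p under 0.05 there were 10 members, and 1132 of all genes (6.35%). Of the 43 differences 30 were higher and 13 lower, with a median of 0.0736, while 43% of all genes were higher and their median was -0.0232. The 30 include SLC2A3, which had 1 read in the controls and 1 in the silenced libraries. After median centring the split was 34 to 9, and after quantile normalization 32 to 11. Every silenced library lay above every control for 11 members, beside 5.22% of all genes: NDRG1, BHLHE40, ANKRD37, BNIP3, DDIT4, P4HA1, P4HA2, PLOD2, SLC2A1, PFKFB3 and ENO2. Every silenced library lay below every control for 4 members, beside 6.87% of all genes: ADM, GPI, ALDOA and GAPDH. The 3 highest fitted differences of the line were those of NDRG1, BNIP3 and CA9, and the 3 lowest those of ADM, GPI and ALDOA.

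**Figure D2:**
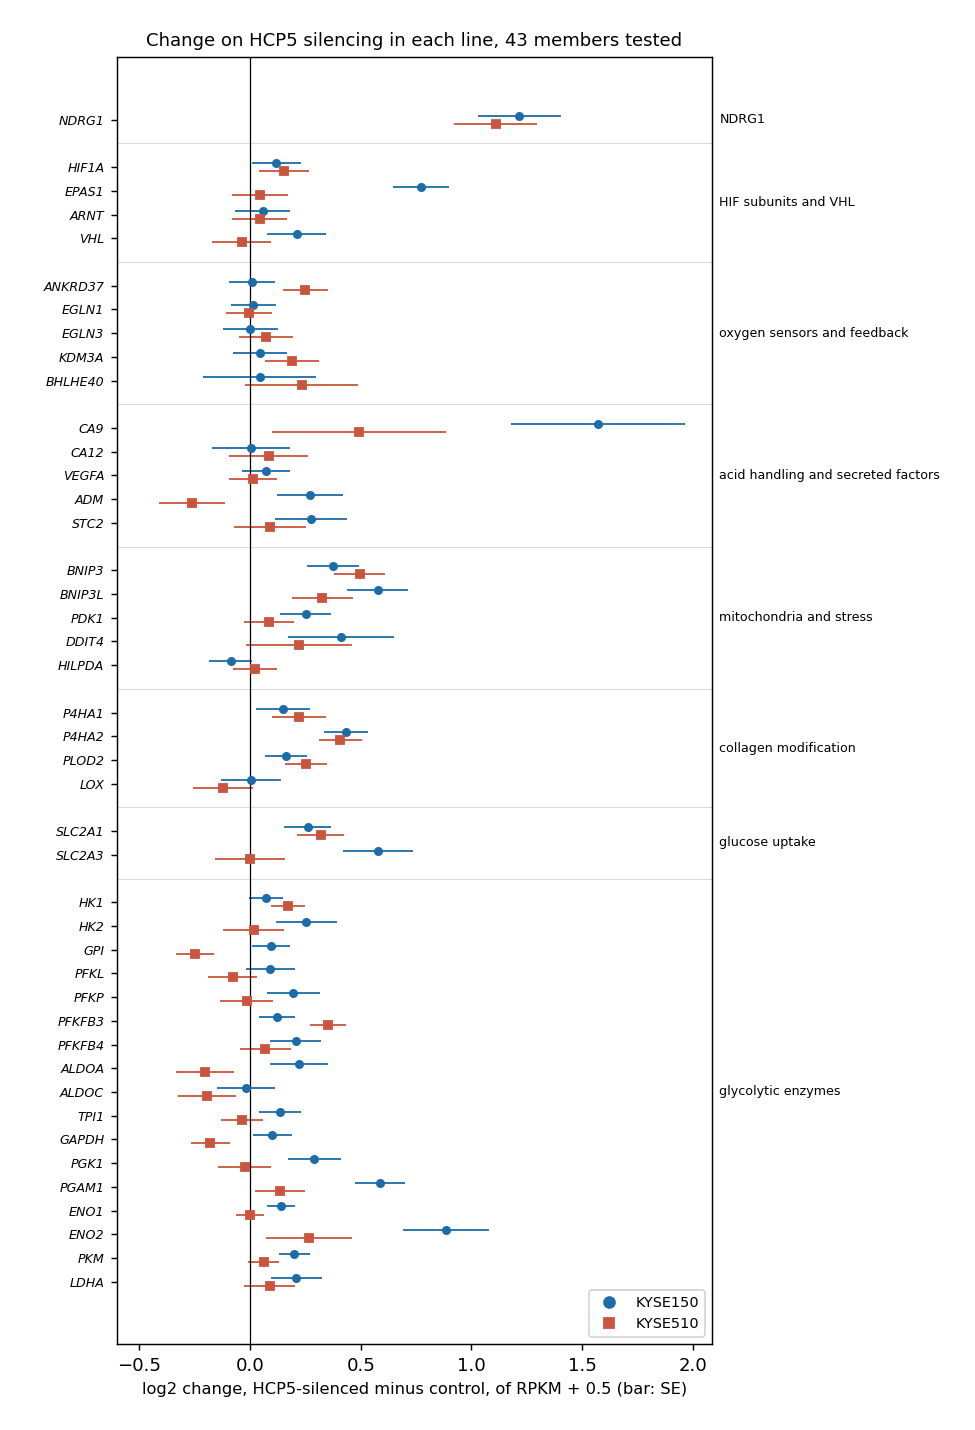
Fitted difference between silenced and control libraries on the log2(RPKM + 0.5) scale for the 43 genes tested, ordered by role, with KYSE150 as blue circles, KYSE510 as red squares and bars of 1 SE (3 libraries per group). NDRG1 is to the right in both lines (1.22 and 1.11), CA9, EPAS1, ENO2 and PGAM1 are farther to the right in KYSE150, and ADM, GPI, ALDOA and GAPDH lie left of 0 in KYSE510.

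Separation in both lines was seen for 5 of the 43 genes, NDRG1, BNIP3, P4HA2, PLOD2 and ENO2, and for 1.33% of all genes tested. For 15 of the 43 the silenced library was higher in all 6 same-numbered pairs, as it was for 6.7% of all genes. The 15 were NDRG1, HIF1A, CA9, BNIP3, BNIP3L, PDK1, DDIT4, P4HA2, PLOD2, SLC2A1, HK1, PGAM1, ENO2, PKM and LDHA. Since the KYSE150 side of these counts was used to choose the set, they are a description.

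Promoters of separated genes are printed because they were higher together in both lines and because several of them are textbook targets of the hypoxia-inducible factors, and the CA9 promoter is added because its site is a classic one. Each runs 5′ to 3′ on the gene's strand from 250 bases before the RefSeq gene start to 50 bases counted from it (RefSeq, GRCh38.p14). Capitals mark each match to the core of the hypoxia response element, searched as ACGTG or GCGTG on both strands, so that the opposite strand reads CACGT or CACGC. BNIP3 is chr10:131981874-131982173, minus strand. PLOD2 is chr3:146161135-146161434, minus strand. ENO2 is chr12:6914330-6914629, plus strand. P4HA2 is chr5:132227042-132227341, minus strand. CA9 is chr9:35673678-35673977, plus strand.
BNIP3: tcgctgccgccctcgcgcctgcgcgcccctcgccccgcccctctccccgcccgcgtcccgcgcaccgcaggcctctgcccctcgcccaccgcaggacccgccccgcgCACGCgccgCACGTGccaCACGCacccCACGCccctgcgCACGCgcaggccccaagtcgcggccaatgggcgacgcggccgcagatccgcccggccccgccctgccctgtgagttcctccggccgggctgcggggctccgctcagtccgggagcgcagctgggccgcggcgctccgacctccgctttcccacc
PLOD2: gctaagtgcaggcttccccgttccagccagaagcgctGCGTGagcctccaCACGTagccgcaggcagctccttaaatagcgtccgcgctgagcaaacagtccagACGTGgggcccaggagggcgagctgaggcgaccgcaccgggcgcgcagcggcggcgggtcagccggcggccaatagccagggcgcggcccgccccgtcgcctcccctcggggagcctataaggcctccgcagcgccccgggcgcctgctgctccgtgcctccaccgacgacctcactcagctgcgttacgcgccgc
ENO2: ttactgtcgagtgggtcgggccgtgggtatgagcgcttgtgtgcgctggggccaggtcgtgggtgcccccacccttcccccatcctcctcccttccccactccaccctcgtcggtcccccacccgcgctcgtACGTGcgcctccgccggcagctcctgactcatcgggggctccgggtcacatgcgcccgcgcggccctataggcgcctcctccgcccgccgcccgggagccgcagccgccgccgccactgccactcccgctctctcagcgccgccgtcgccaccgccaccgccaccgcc
P4HA2: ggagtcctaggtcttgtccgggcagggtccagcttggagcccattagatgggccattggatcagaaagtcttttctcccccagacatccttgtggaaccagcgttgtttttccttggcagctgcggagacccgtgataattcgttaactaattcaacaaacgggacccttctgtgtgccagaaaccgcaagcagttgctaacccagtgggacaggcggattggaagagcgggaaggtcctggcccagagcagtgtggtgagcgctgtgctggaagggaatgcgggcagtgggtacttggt
CA9: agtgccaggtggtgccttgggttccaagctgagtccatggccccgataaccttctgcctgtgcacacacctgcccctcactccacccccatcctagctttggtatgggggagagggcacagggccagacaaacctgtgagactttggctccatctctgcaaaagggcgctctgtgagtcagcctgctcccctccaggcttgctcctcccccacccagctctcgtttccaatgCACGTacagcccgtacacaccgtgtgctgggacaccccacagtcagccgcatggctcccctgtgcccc

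The BNIP3 window holds 6 matches, the farthest 143 bases before the start, of which 2 are the strands of 1 palindrome. PLOD2 has 3, at 213, 200 and 146 bases before the start, and ENO2 has 1, at 118 bases. CA9 has 1 match, at 18 bases before the start. P4HA2 has none in this window, which says only that these letters are not there. Of the 44 genes, 38 matched the promoter table by symbol, with 58 promoters. NDRG1, VHL, VEGFA, BNIP3L, HILPDA and SLC2A3 had no entry. At least 1 core was present in 44 of the 58 promoters (75.9%), in 60.7% of 13770 promoters of genes tested and in 48.5% of all 35116 promoters. At least 2 matches were present in 37.9%, 31.9% and 23.1% respectively. In this count the 2 strands of 1 palindrome, as in GAPDH, make 2 matches. The median GC content of these sets was 68.0%, 64.7% and 58.7%, so promoters of the listed genes were also richer in the bases of the motif. Windows of 1 gene can overlap, as for LOX and KDM3A, so the same match can count more than once and promoters are not separate observations. These matches are a description of sequence and not of binding.

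HIF1A, EPAS1 and ARNT were higher in KYSE510 than in KYSE150 controls, each past the threshold, and VHL overlapped between them. HIF1A had 16.8, 17.5 and 19.6 RPKM in KYSE150 controls and 18.4, 19.2 and 21.1 after silencing, and 52.9, 64.99 and 71.2 against 65.4, 67.9 and 76.3 in KYSE510. The silenced library was higher in every same-numbered pair of both lines, but the KYSE510 difference of 0.16 (SE 0.11) did not pass (adjusted p = 0.925). EPAS1, the other alpha subunit, had 3.20, 3.18 and 3.18 RPKM in KYSE150 controls and 5.45, 5.96 and 5.99 after silencing. The SD of the 3 controls was 0.0107 RPKM, all silenced libraries were above them, the ratio of means was 1.82 and the log2 difference 0.77 (SE 0.13). In KYSE510 the EPAS1 groups overlapped, at 21.98, 18.9 and 22.8 against 23.7, 17.2 and 25.5 RPKM, with a log2 difference of 0.045 (SE 0.13, adjusted p = 0.988). Whether the EPAS1 difference itself differed between lines was not tested. ARNT, the constant partner, was at 4.97 ± 0.804 and 5.16 ± 0.308 RPKM in KYSE150 controls and silenced libraries and at 7.88 ± 0.877 and 8.15 ± 1.07 in KYSE510 (SD, n = 3). VHL, which recognises the hydroxylated alpha subunit, was at 9.04 ± 1.11 and 10.6 ± 1.36 RPKM in KYSE150 and at 9.07 ± 1.45 and 8.78 ± 0.736 in KYSE510. Neither gene separated control from silenced libraries in either line.

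None of the 5 oxygen sensor and feedback genes tested separated in KYSE150, and ANKRD37 and BHLHE40 did, on the higher side, in KYSE510. Of all genes tested, 13.7% separated on the higher side and 5.47% on the lower in KYSE150. In KYSE510 5.22% of all genes separated on the higher side. EGLN1, the main prolyl hydroxylase, was at 3.69 ± 0.350 and 3.73 ± 0.331 RPKM in KYSE150 and 6.27 ± 0.557 and 6.25 ± 0.595 in KYSE510 (SD, n = 3). EGLN3, a hydroxylase that is itself hypoxia-induced, was nearly absent in KYSE150, with 3 reads in 6 libraries, and had 2.37, 3.08 and 3.64 RPKM in KYSE510 controls against 3.24, 2.999 and 3.29 after silencing. ANKRD37, an ankyrin-repeat protein, had 2.01, 2.24 and 1.79 RPKM in KYSE510 controls and 2.42, 2.55 and 2.48 after silencing, without overlap, at a log2 difference of 0.25 (SE 0.10, adjusted p = 0.729). In KYSE150 ANKRD37 was 1.62, 1.89 and 1.66 against 1.68, 2.01 and 1.54 RPKM and the groups overlapped. BHLHE40, a transcriptional repressor, also separated in KYSE510 alone, at 11.1, 13.8 and 14.03 against 14.9, 14.5 and 16.4 RPKM (log2 0.23 (SE 0.26), adjusted p = 0.950). Its KYSE150 values, 2.81, 4.74 and 2.65 in controls and 2.55, 5.61 and 2.72 after silencing, were highest in replicate 2 of both groups. KDM3A, a histone demethylase, was at 1.98 ± 0.303 and 2.05 ± 0.177 RPKM in KYSE150 and at 4.50 ± 0.613 and 5.20 ± 0.563 in KYSE510. Of these 5 genes, 5 were higher in KYSE150 as deposited, EGLN3 with its 3 reads included, but 0 after median centring or quantile normalization. In KYSE510 4 were higher as deposited but 5 after either.

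CA9, the membrane carbonic anhydrase that is a standard reporter of hypoxia in tumours, had the highest fitted KYSE150 difference of the set. KYSE150 controls had 1.08, 0.963 and 3.11 RPKM and silenced libraries 4.92, 4.22 and 8.06, without overlap, with pair ratios of 4.57, 4.39 and 2.59 and a log2 difference of 1.57 (SE 0.39). In KYSE510 the values were 3.48, 3.67 and 8.71 against 6.21, 6.32 and 8.79 RPKM and overlapped, with control 3 nearly as high as silenced library 3. The KYSE510 difference of 0.49 (SE 0.39) did not pass (adjusted p = 0.942), with pair ratios of 1.78, 1.72 and 1.01. Replicate 3 had the highest CA9 level in all 4 groups, and the SE of CA9 was the largest of the 43 members tested. Of the exon bases of CA9, 38.5% overlap ARHGEF39 on the opposite strand. ARHGEF39 differed by 0.36 in KYSE150 and 0.03 in KYSE510 on the log2 scale, and since the use of strand in counting is not given in the sources used here, reads of the overlap cannot be told apart.

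Other acid-handling and secreted factors showed smaller differences. CA12, the related carbonic anhydrase, was listed at 0 in 5 of 6 KYSE150 libraries and had 1.05, 0.795 and 1.54 RPKM in KYSE510 controls against 1.33, 0.835 and 1.49 after silencing. VEGFA, the angiogenic growth factor, was at 2.57 ± 0.122 and 2.73 ± 0.271 RPKM in KYSE150 and at 4.23 ± 0.392 and 4.29 ± 0.625 in KYSE510 (SD, n = 3), with overlap in both lines. ADM, a vasodilator peptide, had 20.4, 14.7 and 22.1 RPKM in KYSE150 controls and 27.5, 19.2 and 22.4 after silencing, higher in each of 3 pairs. In KYSE510 ADM had 12.2, 12.4 and 11.3 RPKM in controls and 10.4, 9.58 and 9.73 after silencing, lower in each of 3 pairs and without overlap, at a log2 difference of -0.26 (SE 0.15, adjusted p = 0.872). STC2, a secreted glycoprotein, was 1.69, 1.96 and 1.68 against 2.14, 3.14 and 1.66 RPKM in KYSE150 and 7.04, 5.87 and 6.19 against 7.29, 6.04 and 7.12 in KYSE510, overlapping in both. ANGPTL4, an inhibitor of lipoprotein lipase, never exceeded 0.194 RPKM and had 40 reads over the 12 libraries, with 3 libraries at 0, so a change in it was not detectable at this depth.

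The mitophagy receptors BNIP3 and BNIP3L were higher after silencing in every pair of both lines. BNIP3 had 1.58, 2.08 and 1.78 RPKM in KYSE150 controls and 2.57, 2.72 and 2.20 after silencing, and 7.67, 8.48 and 10.00 against 13.3, 12.2 and 11.8 in KYSE510. The groups did not overlap in either line, and the log2 difference in KYSE510 was 0.49 (SE 0.12), which did not pass (adjusted p = 0.271). BNIP3L had 7.60, 7.71 and 7.87 RPKM in KYSE150 controls and 10.9, 12.01 and 12.4 after silencing, a log2 difference of 0.58 (SE 0.14). In KYSE510 the BNIP3L values of 5.95, 8.82 and 7.96 against 8.91, 11.4 and 8.47 RPKM overlapped, with a difference of 0.33 (SE 0.14, adjusted p = 0.747). DDIT4, a stress-induced inhibitor of mTOR signalling, had 21.8, 37.7 and 22.2 RPKM in KYSE150 controls and 28.2, 52.6 and 29.3 after silencing. Replicate 2 was the highest DDIT4 library of both KYSE150 groups, so the groups overlapped although each pair was higher. In KYSE510 DDIT4 had 52.1, 51.7 and 58.8 against 63.03, 64.4 and 61.8 RPKM, without overlap, at 0.22 (SE 0.24, adjusted p = 0.950). PDK1, the kinase that restrains pyruvate entry into mitochondria, was low, at 0.785, 0.645 and 0.811 against 0.857, 0.936 and 1.17 RPKM in KYSE150 and 0.508, 0.471 and 0.579 against 0.630, 0.487 and 0.632 in KYSE510. HILPDA, a lipid droplet protein, was 4.27, 4.35 and 4.11 against 3.68, 4.03 and 4.21 RPKM in KYSE150, the lowest fitted difference of the set in that line at -0.087 (SE 0.10), and 4.26, 5.10 and 4.93 against 4.33, 5.49 and 4.76 in KYSE510.

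Of the 4 collagen-modifying enzymes, P4HA2 and PLOD2 separated on the higher side in both lines, beside 1.33% of all genes tested. P4HA2, an alpha subunit of the prolyl hydroxylase of collagen, had 3.76, 3.72 and 3.70 RPKM in KYSE150 controls and 5.29, 5.26 and 5.08 after silencing, without overlap, a log2 difference of 0.43 (SE 0.10). In KYSE510 P4HA2 had 2.16, 2.16 and 2.37 RPKM in controls and 3.77, 2.82 and 2.85 after silencing, a log2 difference of 0.41 (SE 0.10, adjusted p = 0.286). PLOD2, a lysyl hydroxylase of collagen, had 3.74, 3.42 and 3.61 against 3.87, 4.09 and 4.28 RPKM in KYSE150 and 8.42, 8.91 and 9.33 against 12.4, 10.1 and 9.73 in KYSE510, where the difference was 0.25 (SE 0.093, adjusted p = 0.638). P4HA1, the other alpha subunit, had 7.07, 7.20 and 6.95 RPKM in KYSE510 controls and 9.72, 8.04 and 7.37 after silencing, without overlap, and 4.76, 5.18 and 4.26 against 4.44, 5.54 and 6.02 in KYSE150, with overlap. Silenced library 1 of KYSE510 was the highest of its group for P4HA1, P4HA2 and PLOD2. LOX, which cross-links collagen, stayed at or below 0.0564 RPKM in KYSE150 and had 1.05, 1.60 and 1.10 RPKM in KYSE510 controls against 1.06, 1.32 and 0.933 after silencing.

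Of the glucose transporter genes, SLC2A1 overlapped between the controls of the lines and SLC2A3 was nearly absent in KYSE510. SLC2A1 had 27.3, 23.7 and 29.4 RPKM in KYSE150 controls and 29.2, 32.6 and 34.8 after silencing, with overlap, and 35.1, 28.4 and 32.2 against 41.4, 37.00 and 41.02 in KYSE510, without overlap. The KYSE510 difference was 0.32 (SE 0.11) and did not pass (adjusted p = 0.558). SLC2A3 had 1.54, 2.35 and 2.17 RPKM in KYSE150 controls and 2.45, 3.82 and 3.58 after silencing, without overlap, a log2 difference of 0.58 (SE 0.16). In KYSE510 SLC2A3 had 1 read in the 3 controls together and 1 in the 3 silenced libraries.

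The 17 glycolytic enzymes included the most abundant genes of the set and were split in direction in KYSE510. In KYSE150, 16 of 17 were higher as deposited, 11 after median centring and 15 after quantile normalization, with a median of 0.196. In KYSE510, 8 of 17 were higher as deposited, 11 after centring and 10 after quantile normalization, with a median of -0.00077. None of the 17 passed the test of limma in KYSE510, beside 0.0224% of all genes on the higher side and 0.0168% on the lower. An unadjusted p under 0.05 was found for 3 of the 17, beside 6.35% of all genes. PGAM1, the phosphoglycerate mutase, had 63.98, 65.7 and 79.3 RPKM in KYSE150 controls and 94.7, 114 and 105 after silencing, without overlap, a log2 difference of 0.59 (SE 0.11). In KYSE510 PGAM1 was 80.7, 100.1 and 102 against 98.7, 104.5 and 106 RPKM, with a difference of 0.13 (SE 0.11, adjusted p = 0.942). ENO2, the enolase known from neurons, had 0.979, 1.79 and 1.31 RPKM in KYSE150 controls and 2.09, 3.84 and 2.93 after silencing, and 2.41, 2.89 and 3.20 against 3.46, 3.83 and 3.22 in KYSE510. ENO2 separated in both lines, by 0.89 (SE 0.20) in KYSE150 and 0.27 (SE 0.20) in KYSE510, where it did not pass (adjusted p = 0.925). PFKFB3, which makes the activator of phosphofructokinase, had 12.9, 13.8 and 13.9 RPKM in KYSE510 controls and 16.8, 16.7 and 18.8 after silencing, without overlap, at 0.35 (SE 0.081, adjusted p = 0.265), and 17.97, 16.98 and 18.3 against 21.4, 19.03 and 17.9 in KYSE150, with overlap.

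Members of the glycolytic group with lower values in silenced KYSE510 libraries included 3 of 17 that separated, beside 6.87% of all genes. GPI, the glucose-phosphate isomerase, had 19.98, 22.7 and 23.6 RPKM in KYSE510 controls and 18.1, 18.2 and 19.1 after silencing, a log2 difference of -0.25 (SE 0.085, adjusted p = 0.582). ALDOA, the main aldolase, had 136.0, 157.2 and 162.7 against 134.6, 124.9 and 135.5 RPKM (-0.20, SE 0.13, adjusted p = 0.907), and GAPDH, the glyceraldehyde phosphate dehydrogenase often used as a reference gene, 967, 1114 and 1067 against 881, 948 and 948 RPKM (-0.18, SE 0.088, adjusted p = 0.849). In KYSE150 the same 3 genes overlapped between groups, with GPI at 18.4, 18.9 and 20.8 against 19.04, 22.1 and 21.1 RPKM. ALDOA was 64.00, 65.5 and 91.7 against 77.5, 87.2 and 90.7 and GAPDH 911, 961 and 1090.0 against 1029, 1087 and 1052 RPKM in that line. The remaining enzymes are given as means ± SD (n = 3) in RPKM for KYSE150 control and silenced and then KYSE510 control and silenced. The hexokinases, which trap glucose in the cell, were at 55.8 ± 1.22, 58.8 ± 1.06, 30.2 ± 2.86 and 34.04 ± 2.10 for HK1 and at 18.9 ± 2.75, 22.5 ± 1.59, 16.98 ± 2.01 and 17.3 ± 3.04 for HK2. The phosphofructokinase subunit PFKL was at 9.78 ± 0.772, 10.5 ± 1.39, 16.9 ± 1.84 and 15.97 ± 1.15, and PFKP at 69.9 ± 9.21, 79.8 ± 6.81, 32.5 ± 2.81 and 32.3 ± 4.12. PFKFB4, the relative of PFKFB3, was below 1.2 RPKM throughout, at 0.705 ± 0.0919, 0.890 ± 0.104, 0.947 ± 0.173 and 1.01 ± 0.0756.

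The other enzymes between aldolase and lactate are given in the same order of groups. Triose-phosphate isomerase, TPI1, was at 295 ± 32.4, 323 ± 19.4, 323 ± 28.7 and 314 ± 3.92 RPKM, and phosphoglycerate kinase, PGK1, at 53.3 ± 5.83, 65.3 ± 6.84, 58.5 ± 9.07 and 57.2 ± 2.21. ENO1, the main enolase, was at 316 ± 4.22, 348 ± 13.3, 753 ± 24.8 and 752 ± 9.68 RPKM and separated in KYSE150 alone. PKM, the pyruvate kinase, was at 268 ± 15.6, 308 ± 16.7, 222 ± 2.59 and 232 ± 7.38 RPKM. LDHA, which makes lactate, was at 123 ± 12.8, 142 ± 13.2, 130.1 ± 17.04 and 138 ± 9.41 RPKM. PKM and LDHA were higher after silencing in all 6 pairs, but by 0.062 (SE 0.069) and 0.09 (SE 0.11) in KYSE510, neither of which passed (adjusted p = 0.952 and 0.961).

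**Figure D3:**
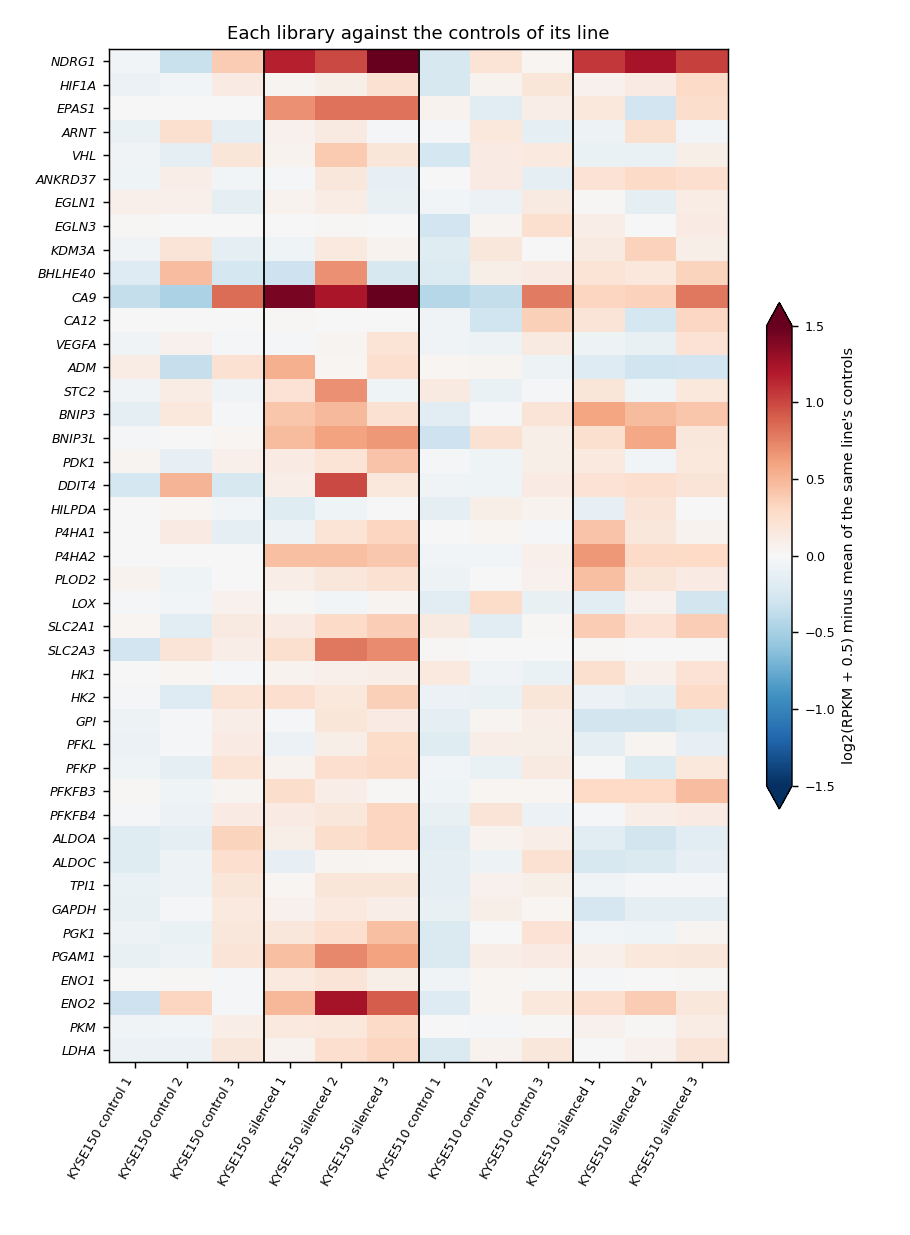
Each of the 43 genes tested in each of the 12 libraries, coloured by log2(RPKM + 0.5) minus the mean of the 3 controls of the same line, from blue (lower) to red (higher), with colours saturating at 1.5. NDRG1 is red in all 6 silenced libraries, CA9 also in control 3 of each line, and DDIT4 and BHLHE40 in replicate 2 of both KYSE150 groups.

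More of these genes passed the test between the control libraries of the lines than on silencing within a line. This comparison shares its controls with both silencing comparisons, so its values are set beside theirs without a correlation. It called 30 of the 43 genes in limma. Of these 22 were higher in KYSE510, beside 28.3% of all genes, and 8 higher in KYSE150, beside 33.7%. ALDOC, EGLN3, CA12, LOX and SLC2A3 reached 0.5 RPKM in 6 libraries each, all from the same line. They entered the test only through the line where they are high, so their calls and p-values here are a description. By fitted log2 difference the 6 genes most higher in KYSE510 were ALDOC (3.74, SE 0.13, adjusted p = 9.1e-10), EGLN3 (2.80, SE 0.12, adjusted p = 6.4e-09), EPAS1 (2.55, SE 0.13, adjusted p = 1.8e-08), BNIP3 (1.99, SE 0.12, adjusted p = 6.2e-08), BHLHE40 (1.82, SE 0.26, adjusted p = 7.9e-05) and HIF1A (1.77, SE 0.11, adjusted p = 1.2e-07). Both alpha subunits and the hydroxylase EGLN3 were among them. The 6 most higher in KYSE150 were SLC2A3 (-2.31, SE 0.16, adjusted p = 2.4e-07), PFKP (-1.09, SE 0.12, adjusted p = 1.2e-05), HK1 (-0.88, SE 0.077, adjusted p = 1.7e-06), ADM (-0.63, SE 0.15, adjusted p = 0.00327), P4HA2 (-0.63, SE 0.10, adjusted p = 0.00018) and PFKFB3 (-0.38, SE 0.081, adjusted p = 0.00170), where the negative sign means lower in KYSE510. ALDOC, an aldolase known from brain, had 0.119, 0.166 and 0.331 RPKM in KYSE150 controls and 7.91, 8.32 and 10.4 in KYSE510 controls, the widest fitted gap. It did not separate on silencing in either line, at 0.143, 0.218 and 0.215 RPKM in silenced KYSE150 and 7.40, 7.52 and 8.07 in silenced KYSE510.

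**Figure D4:**
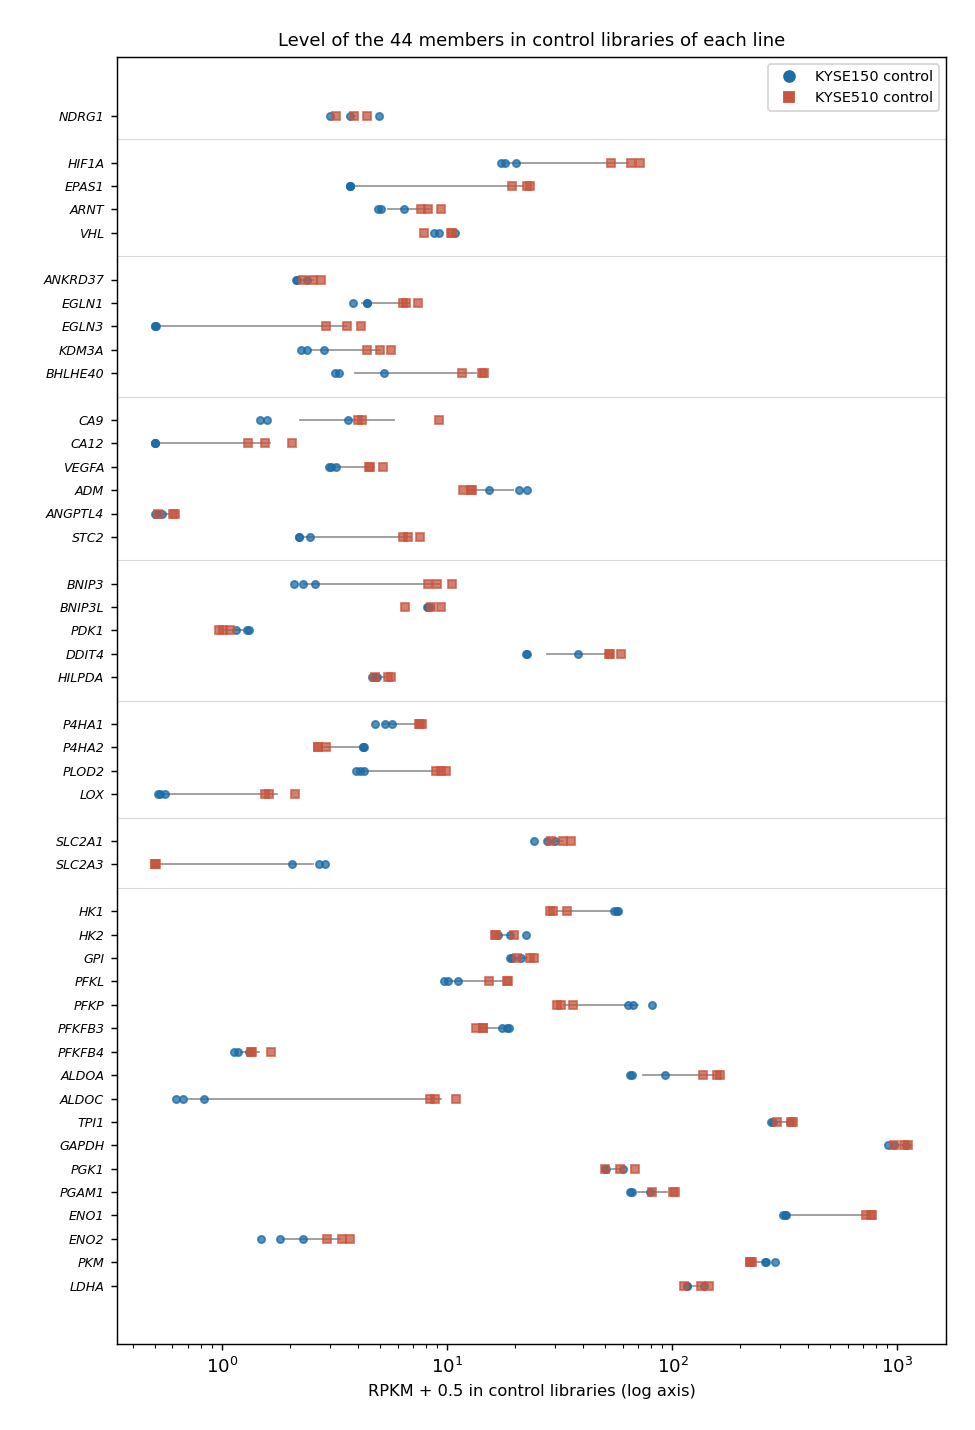
Level of the 44 genes in the 3 control libraries of KYSE150 (blue circles) and of KYSE510 (red squares), as RPKM + 0.5 on a log axis, ordered by role, with a grey line between the group means. NDRG1 overlaps between lines, while SLC2A3 is at the floor in KYSE510 and EGLN3 and CA12 are at the floor in KYSE150.

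Some genes were nearly on in one line and off in the other, so the fitted differences depend on the added constant, and summed reads of the 3 controls are given instead. SLC2A3 had 791 reads in KYSE150 controls and 1 in KYSE510 controls, a depth-scaled ratio of 961 (exact 95% interval 172 to 37990.0, counting error only). EGLN3 had 1 read against 1730, a ratio of 1424 (255 to 56290.0). CA12 had 0 against 641 reads, so that it was at least 176-fold higher in KYSE510 with a floor of 3 reads per group. LOX had 12 against 525 reads, a ratio of 36.0 (20.4 to 70.2), and ALDOC 39 against 2015, a ratio of 42.5. In these 5 genes the silenced libraries kept the order of the lines.

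Because RPKM is per length, related enzymes of 1 library can be set side by side as shares of their summed RPKM. The median share of HK1 in HK1 and HK2 was 75.1% in KYSE150 controls and 72.1% after silencing, and 64.8% and 67.6% in KYSE510. PFKL took 12.1% and 11.3% of PFKL and PFKP in KYSE150 and 33.5% and 31.8% in KYSE510, so the lines did not overlap but the groups within them did. BNIP3 took 18.4% and 18.5% of BNIP3 and BNIP3L in KYSE150 and 55.7% and 58.1% in KYSE510. HIF1A took 84.6% (84.0 to 86.0) of HIF1A and EPAS1 in KYSE150 controls and 77.2% (76.3 to 77.9) after silencing, without overlap, and 75.8% and 74.97% in KYSE510, with overlap. P4HA1 took 55.9% (53.5 to 58.2) of P4HA1 and P4HA2 in KYSE150 controls and 51.3% (45.7 to 54.2) after silencing, and in KYSE510 76.6% (74.5 to 76.9) against 72.1% (72.0 to 74.0), without overlap there. The lowest share of EGLN1 in EGLN1 and EGLN3 was 99.8% among KYSE150 libraries, and the medians were 65.5% and 66.3% in KYSE510. The lowest share of CA9 in CA9 and CA12 was 99.9% among KYSE150 libraries, and the medians were 82.2% and 85.5% in KYSE510. In the pairs ALDOA with ALDOC, ENO1 with ENO2, PFKFB3 with PFKFB4 and SLC2A1 with SLC2A3, the lowest group median of the gene named first was 90.7%.

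**Figure D5:**
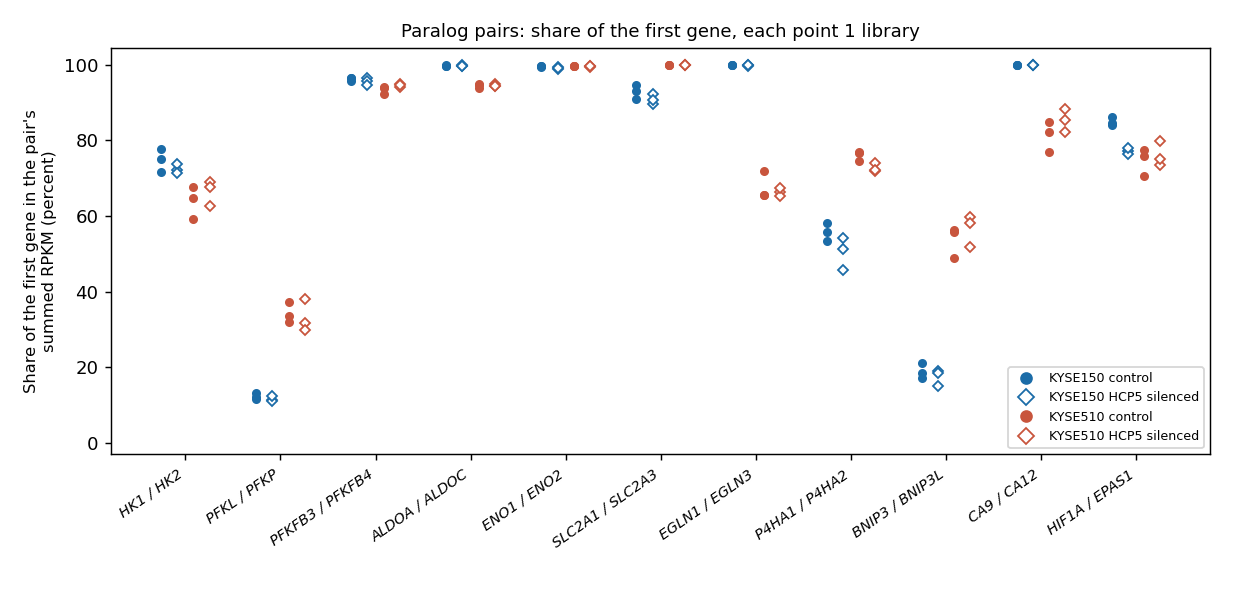
Share of the first gene in the summed RPKM of 11 gene pairs, in percent, with 1 point per library, KYSE150 in blue, KYSE510 in red, controls filled and silenced libraries open. The lines stand apart for PFKL and PFKP, for BNIP3 and BNIP3L and for EGLN1 and EGLN3, and the HIF1A share is lower in silenced than in control KYSE150 libraries.

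Other genes of the pathways were listed from general knowledge, with earlier results of these data known. They gave 0 calls in limma without the replicate block in either silencing comparison. At an unadjusted p under 0.05, the 5 lists together had 11 genes in KYSE150, beside 18.1% of all genes tested, and 4 in KYSE510, beside 6.35%. With the block 6 passed in KYSE150 and 0 in KYSE510. These 6, named after their values were seen, were TGFA, PGAM2, SLC16A3, MPC2 and PDK2, higher, beside the 5.04% of all genes given before, and LDHB, lower, beside 1.66%. As deposited, 66.1% of all genes tested were higher in KYSE150 and 43% in KYSE510. Of 22 tested genes among other hypoxia-induced genes, 20 were higher in KYSE150 as deposited and 13 after median centring, and 17 were higher in KYSE510 as deposited and 19 after centring. Their medians as deposited were 0.182 and 0.0939 on the log2 scale. Of 17 further glycolysis genes, 11 were higher in KYSE150 and 7 in KYSE510, and 10 and 8 after centring. Of 7 further genes that regulate the factors, 6 were higher in KYSE150 and 2 in KYSE510 as deposited, and 2 and 3 after centring. The 8 iron genes, listed because loss of iron induces NDRG1, were all lower in KYSE510 with a median of -0.133, and 7 of 8 were lower there after centring. Of the 8, 1 had an unadjusted p under 0.05 in KYSE510, and the median of all genes was -0.0232. In KYSE150 5 of the 8 iron genes were higher as deposited and 3 after centring. Of the other NDRG genes, 2 of 3 were tested, and 1 was higher in KYSE150 and 0 in KYSE510. Between control lines 9 of the 22 hypoxia genes were higher in KYSE510 and 10 lower, and 7 of 8 iron genes were higher, each past the threshold. Of all genes tested, 28.3% were past it on the higher side and 33.7% on the lower.

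Some values carry doubt from shared sequence or overlapping genes. Exons of ANKRD37 overlap UFSP2 over 35.2% of their bases and those of DDIT4 overlap RP11-442H21.2 over 41.2%, both on the opposite strand. For GAPDH the overlap with RP5-940J5.9 was 14.2%. Named pseudogenes took 1.21% to 9.66% of the reads of BNIP3 and its copies and at most 2.66% for EGLN1, LDHA, TPI1, ENO1, PGAM1 and GAPDH. The 3 SLC2A3 pseudogenes took at least 58.2% of the reads of SLC2A3 and its copies, so the split of reads between them is uncertain.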

How the data were processed

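RNA was extracted with TRIzol and sequenced, per the labels' protocols. HISAT2, DESeq and the build GRCh38 are named, without roles, per the submitters' processing notes. The annotation, strand use and filters are not given in the sources used here. The authors deposited RPKM for 38516 genes in 12 libraries. RPKM times exon length was a whole multiple of 1 step per library for every value (tolerance 0.05 read), so reads were recovered, and their totals are the depths given. Because RPKM is relative, a change in a few strong genes shifts all values of its library.

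The members and lists were chosen with earlier results of these data known. Differences were fitted with limma 3.58.1 in R 4.3.3 on log2(RPKM + 0.5), with 4 group means over 12 libraries, a mean-variance trend and 8 residual degrees of freedom. The 17823 genes that reached 0.5 RPKM in 3 or more libraries were tested. P-values were two-sided and adjusted by Benjamini-Hochberg over all of them, with a threshold of 0.05. The fit was tested on simulated data. The exact permutation test was run in R, and the exact intervals of the read ratios used scipy 1.17.1.

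Every member is given with its RPKM. Full statistics follow a rule: NDRG1 in each comparison, the 3 highest and 3 lowest members in KYSE510 since none passed, the 6 highest and 6 lowest passing members between control lines, and the 6 highest and lowest in KYSE150 as a description. The 6 highest there were CA9, NDRG1, ENO2, EPAS1, PGAM1 and SLC2A3, and the 6 lowest, between -0.087 and 0.0087, were HILPDA, ALDOC, EGLN3, CA12, LOX and ANKRD37. Other members given with a test were chosen after their values were seen.

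Control and silenced libraries share replicate numbers in their titles. Deviations from group means correlated at 0.147 to 0.415 across genes in all 6 same-numbered pairs and at -0.385 to 0.184 in the others, so the numbers were taken to pair libraries. An alternative fit had the replicate block, leaving 4 residual degrees of freedom. Others were the pseudocount, the filter, the scaling, voom, the libraries fitted and the prior. Promoters come from RefSeq, GRCh38.p14.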

Additional observations from a re-analysis of the deposited data

Results flagged for a closer look

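For ADM and GPI every same-numbered pair was higher after silencing in KYSE150 and every pair lower in KYSE510, in the values as deposited. Neither gene passed the test in KYSE510. For ADM, the vasodilator peptide, the log2 difference was 0.27 (SE 0.15) in KYSE150, higher in 3 of 3 pairs, and -0.26 (SE 0.15) in KYSE510, higher in 0 of 3. For GPI, the glucose-phosphate isomerase, it was 0.095 (SE 0.085) in KYSE150, higher in 3 of 3 pairs, and -0.25 (SE 0.085) in KYSE510, higher in 0 of 3. With each library centred on its median the KYSE150 difference of GPI turned to -0.034, and that of ADM was 0.14. The difference between lines was not tested for either gene.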

How the results depend on the processing

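NDRG1 in KYSE510 was higher under every alternative run, but its call was not stable. The adjusted p passed at 0.0305 (log2 1.14) with each library centred on its median, at 0.0329 (1.14) with quantile normalization, at 0.0457 (1.22) with voom on recovered reads and at 0.0152 (1.11) with the replicate block. It did not pass with a pseudocount of 0.1 or 1 (0.104 and 0.0739), with the 6 KYSE510 libraries alone (0.294) or with any 1 library left out (log2 0.99 to 1.21, adjusted p 0.0618 to 0.262). The number of members called in KYSE510 was 1 in place of 0 under the same 4 alternatives and 0 with any library left out. In KYSE150, a description, the 2 members called became 1 with no filter on low values, 0 with only the 6 libraries compared and 9 with the replicate block. The share of all genes called higher was 0.376% in the main fit and 5.04% with the block. Leaving out 1 library gave 0 to 7: 7 without KYSE150 control 3, 0 without KYSE150 control 1 or 2 or silenced 1 or 3, 1 without silenced 2, 4 without KYSE510 control 1 and 1 without KYSE510 control 3. For these other fits the share of all genes is not given here, so the counts cannot be read as particular to the members. The cause was not tested. The count between control lines stayed at 29 to 33, and no called value changed sign under any alternative. Between control lines no blocked value exists, since each block lies within a line. The block changed no other call of a KYSE510 member. Depth limits ANGPTL4 and the genes at a few reads in 1 line.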

Other observations

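Among genes outside the set, the keratin KRT14 of basal squamous cells had 28.5, 22.96 and 81.2 RPKM in KYSE150 controls and 127, 91.2 and 369 after silencing, and 6.78, 4.88 and 5.13 against 14.5, 16.8 and 19.8 in KYSE510, without overlap in either line. It did not pass in limma in either line (adjusted p = 0.0964 in KYSE150 and 0.560 in KYSE510), and it passed in both with the replicate block (0.00793 and 0.0395). KYSE150 replicate 3 was the highest KRT14 library of both groups of that line, as it was for NDRG1 and CA9. KRT14 was chosen after its values were seen.

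The lactate exporter SLC16A3, also chosen after its values were seen, was higher by 0.92 on the log2 scale in silenced KYSE150 libraries and by 0.29 in KYSE510, and LDHB, the other main lactate dehydrogenase subunit, was lower by 0.26 and 0.10. None of these passed the threshold in limma without the block. With it both passed in KYSE150 (adjusted p = 0.0216 for SLC16A3 and 0.0335 for LDHB) and neither in KYSE510 (0.401 and 0.412).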
